A study of Mus musculus with 15 samples.

Results

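Nras, Hras, Rras, Rras2 and Mras encode small GTPases of the RAS family, Nf1 encodes neurofibromin, which turns RAS off, and Sos1 encodes an exchange factor, which turns RAS on. These 7 genes were examined in the H3K27ac peak list of 1 mouse tumor library. Nras was chosen by its measured fold enrichment, since 1 peak at its promoter had the highest of the whole list, so that value is a description and not a finding. The other 6 genes were included for their place in the same pathway, and all 7 were chosen with earlier results of these data known. A peak was taken when it overlapped, by at least 1 bp, the RefSeq span of a gene in mm10 or the 50 kb on either side. By this rule 158 of the 122375 peaks in the list belonged to the 7 genes. Each peak was put in 1 of 3 classes. A promoter peak overlapped the 2 kb on either side of a transcription start site of its gene, a gene body peak lay elsewhere within the gene, and a flank peak lay outside both.

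RAS proteins are molecular switches at the cell membrane, active when bound to GTP and inactive when bound to GDP. Exchange factors such as SOS1 load GTP after growth factor receptors are engaged, and GTPase-activating proteins such as neurofibromin speed GTP hydrolysis. Active RAS signals through the RAF, MEK and ERK kinases, through PI3 kinase and through RAL exchange factors, and the pathway is best known in rhabdomyosarcoma for its mutations in tumors that lack a PAX fusion. H3K27ac is acetylation of lysine 27 of histone H3, a mark of active promoters and enhancers, and at active promoters it usually lies over the nucleosomes beside the start site.

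The tumors were fusion-positive rhabdomyosarcomas of mice. The series held 15 CUT&RUN libraries, with H3K27ac profiled in 6 MCP and 3 TCP libraries and IgG controls in 3 of each, and the list was assigned to MCP H3K27ac replicate 5, as the title of that sample numbers it. MCP mice carried 4 alleles or transgenes, Myf6-Cre with the fusion allele of Pax3, Pax(3P3F/P3F) in the labels, the floxed Cdkn2a(Flox/Flox) and the reporter R26-tdTom, so that Cre made from the Myf6 locus, active in myogenic cells, switched on PAX3-FOXO1, removed Cdkn2a and marked the cells with tdTomato. TCP mice carried the same alleles with Cre driven by Tek regulatory sequence, which acts in endothelial and hematopoietic cells. No TCP library and no other MCP library was analysed here. Ages of the animals are not given in the sources used here. All values below are therefore from 1 library, with no replicates, no test and no comparison between tumor types.

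The fold enrichment of a peak is the ratio of fragments at its summit to the IgG background there, after scaling for depth and adding 1 to both. At 47.0% of peaks this background was the same value, 1.055 fragments, the lowest of the list. Among these peaks the fold varies with the H3K27ac fragments alone. The list gives no counts, so whole fragments were recovered from its fold and p columns. The median peak of the list had a fold enrichment of 5.22 (quartiles 4.36 and 6.51), 13 fragments over its summit and a width of 163 bp. The H3K27ac library was 1.13 times as deep as its IgG library. Ranges in parentheses after a fold are 95% Poisson intervals of the fragments, with the background taken as fixed, and cover counting error only. Of the cell type markers, 2 of 10 myogenic genes had a promoter peak (Myf6 and Pax3, which carry alleles of the model). So did 1 of 10 endothelial genes (Cd34) and 1 of 6 immune genes (Cd68), where 45.6% of all protein-coding genes had one. The defining myogenic factors Myod1 and Myog had no promoter peak. In its flanks Myod1 had 11 peaks, and Myog had no peak in its window. The other flank counts were 35 at Myf6, 28 at Myf5, 17 at Chrna1, 15 at Des, 9 at Pax3 and 7 at Cdh15. Pax7 had no peak in its window, Mef2c had only 1 gene body peak, and Pax3 had 31 gene body peaks. Over all protein-coding genes, 72.2% had a flank peak.

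The sequence below the summit of the strongest promoter peak of each gene shows how different the marked DNA was from gene to gene. For Nras the 30 bases at the summit, chr3:103058875-103058904 in mm10, plus strand, are printed with the 300 bases of intron 2 that follow exon 2 within the same peak, chr3:103059033-103059332.
Nras summit: agtttaatcgtaattgctgcttttctacag
Nras intron 2: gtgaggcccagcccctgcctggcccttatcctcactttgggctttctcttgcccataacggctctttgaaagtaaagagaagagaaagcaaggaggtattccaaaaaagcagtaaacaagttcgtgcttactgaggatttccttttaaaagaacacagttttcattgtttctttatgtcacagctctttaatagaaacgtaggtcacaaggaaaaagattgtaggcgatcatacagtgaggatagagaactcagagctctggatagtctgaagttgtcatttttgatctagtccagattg
The summit bases end at the acceptor site of exon 2, and the intron 2 stretch begins with the donor site. For Mras the 30 bases at the summit are chr9:99437019-99437048, minus strand, 321 bp before the start site.
Mras: gttgaagcgacgggactcttctaaggactg
For Nf1 the window is chr11:79338870-79339169, plus strand, upstream of the gene.
Nf1: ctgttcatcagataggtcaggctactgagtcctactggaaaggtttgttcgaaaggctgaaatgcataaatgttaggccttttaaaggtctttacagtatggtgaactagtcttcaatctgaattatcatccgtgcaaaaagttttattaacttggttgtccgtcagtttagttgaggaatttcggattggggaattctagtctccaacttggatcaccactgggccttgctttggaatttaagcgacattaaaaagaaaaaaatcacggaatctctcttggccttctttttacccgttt
For Rras the stretch is chr7:45018405-45018589, plus strand, in an intron, with the letters of an E-box, the site of myogenic factors such as MYOD1, in capitals.
Rras: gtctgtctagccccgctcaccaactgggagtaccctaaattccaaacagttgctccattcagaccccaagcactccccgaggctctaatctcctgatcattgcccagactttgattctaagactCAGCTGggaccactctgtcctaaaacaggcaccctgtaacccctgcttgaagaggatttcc
For Rras2 the stretch is chr7:114116587-114116832, minus strand, in an intron.
Rras2: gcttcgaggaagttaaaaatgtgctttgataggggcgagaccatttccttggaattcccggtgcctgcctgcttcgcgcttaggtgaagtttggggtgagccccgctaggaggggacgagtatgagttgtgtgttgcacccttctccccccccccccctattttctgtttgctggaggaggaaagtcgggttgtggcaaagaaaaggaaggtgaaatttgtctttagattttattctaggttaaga
For Sos1 the peak is chr17:80479487-80479567, minus strand, in an intron.
Sos1: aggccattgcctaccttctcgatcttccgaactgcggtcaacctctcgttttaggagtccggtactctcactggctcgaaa
For Hras the peak is chr7:141193047-141193144, minus strand, in an intron.
Hras: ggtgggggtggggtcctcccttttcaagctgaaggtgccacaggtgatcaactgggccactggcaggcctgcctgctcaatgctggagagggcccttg

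The 300 bp around each of these summits held between 39.3% GC at Nf1 and 59.7% GC at Sos1, with 44.0% at Nras, against a median of 48.3% over the 26771 promoter peaks of the list. The number of CG pairs ran from 3 at Hras and at Rras to 20 at Mras and at Sos1. At the identity asked for (95% over 50 bp or more), none of the 7 windows had a match elsewhere in the genome. An AP-1 site (TGANTCA, the letters bound by FOS and JUN) stood in the Nras window alone, against 8.5% of all promoter windows. The E-box CAGCTG stood in 3 of the 7 (Hras, Rras and Sos1), against 13.2%, and the GC box GGGCGG of SP and KLF factors in Mras alone, against 16.3%. At Hras and Sos1 the peak is narrower than the window, and the E-box did not lie within the peak. None of the 7 held the ETS core CCGGAA (10.5% of all promoter windows), the CREB site TGACGTCA (0.403%) or a palindromic homeodomain site (0.448%). Both strands were searched, and these letters are matches in a window, not sites of binding.

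All 7 genes had a promoter peak, where 45.6% of the 21000 protein-coding genes had one. Nras was chosen by such a peak and could not fail, which leaves 6 of 6. These 6 were also chosen with earlier results of these data known, so this count is a description. Promoters rich in CG pairs are marked more often, so genes were ranked by the CG pairs around their start sites and cut into 10 equal bins. Nras and Rras were in bin 6, where 64.0% of genes had a promoter peak, Rras2 and Nf1 in bin 9, with 70.6%, and Hras, Mras and Sos1 in bin 10, with 73.1%. Over bins 6 to 10 the share was 69.4%, nearer to the 6 of 6 than the share over all genes. By chromosome the share of genes with a promoter peak was 48.8% on chromosome 3 (Nras), 35.6% on chromosome 7 (Hras, Rras and Rras2), 46.5% on chromosome 9 (Mras), 52.2% on chromosome 11 (Nf1) and 46.3% on chromosome 17 (Sos1).

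A promoter peak of fold enrichment 10 or more was found at 3 of the 7 (Nras, by the rule, Mras and Nf1), where 8.73% of all genes and 19.2% of the genes with a promoter peak had one. At least 5 promoter peaks were found at 4 of the 7 (Nras, Rras, Nf1 and Sos1), where 7.08% of all genes had as many. With only peaks of -log10 q of at least 5 this count was 0 of the 7 (1.71% of all genes), and with promoters of 1 kb either side it was 1 of the 7, Nf1 (2.17% of all genes), so it rests on weak peaks and on the width of the promoter. The 29 promoter peaks of the 7 genes had a median fold of 5.17, which was 5.15 without the strongest Nras peak, and the 26771 promoter peaks of the list had a median of 5.49. The typical promoter peak of these genes was thus no higher than that of other genes, and the high folds were single peaks.

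**Figure D1:**
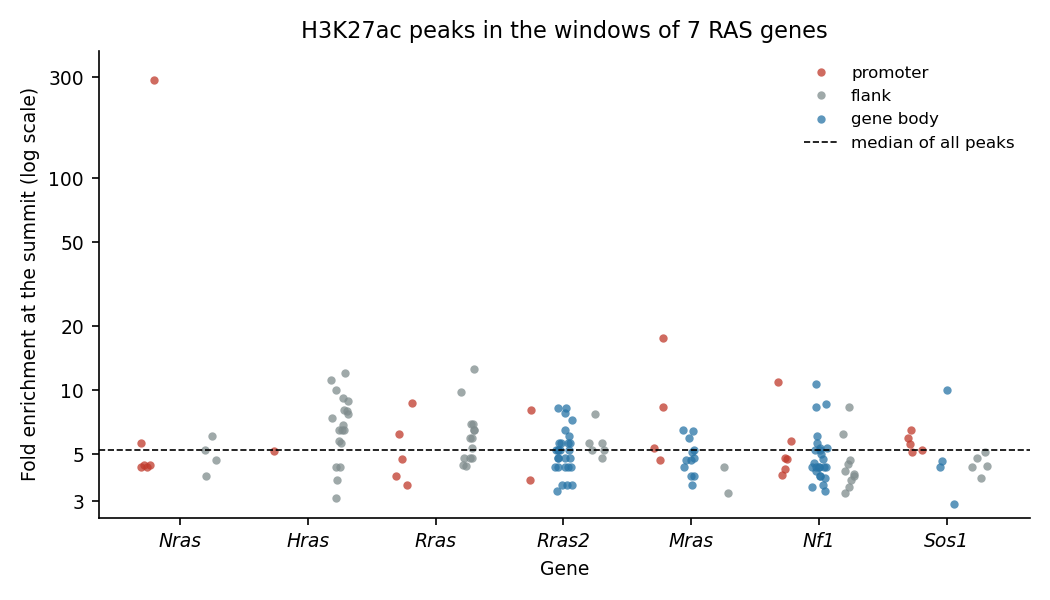
Fold enrichment (log scale) of each of the 158 peaks, by gene and by class, with 1 point a peak and a dashed line at the median of all peaks in the list, 5.22. The strongest Nras peak stands at 290.44, and every other peak lies at or below 17.7.

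Nras lies at chr3:103058285-103067914 on the plus strand. Its strongest peak, chr3:103058381-103059491, was 1111 bp wide, began 96 bp after the start site and ended 1206 bp after it, so it covered the end of exon 1, the 464 bp of intron 1, the whole of exon 2 (chr3:103058905-103059032, which holds the first coding bases) and part of intron 2. Its summit was in intron 1, 604 bp after the start site and 16 bp before exon 2. There were 1969 fragments over the summit against an IgG background of 5.0 fragments, a fold enrichment of 290.44 (278 to 304).

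The other 5 Nras promoter peaks had folds from 4.36 to 5.65, with 9 to 14 fragments, near the median of the list. The strong peak was thus bounded by ordinary ones. The neighbor upstream ended 231 bp before it and had 14 fragments, and the neighbor downstream began 93 bp after it and also had 14 fragments, so the summit of the strong peak held 141 times the fragments of the highest of its neighbors. The IgG background was 5.0 at the strong peak and 1.05 to 2.0 at the other promoter peaks, and 1.07% of all peaks in the list had a background of 5 fragments or more.

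By the value that chose it, the Nras peak was followed in the list by a peak in an intron of C1d on chromosome 11, chr11:17257284-17258946, with a fold of 30.6 and 70 fragments, which the Nras value exceeded 9.49 times. In fragments the next peak was on chromosome 19, with 271 fragments over a background of 15 and with a fold of 15, and the Nras peak exceeded it 7.27 times. Both gaps are within 1 library, and whether another library of the series has this peak was not tested.

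No peak lay in the Nras gene beyond its 2 kb promoter, while with promoters of 1 kb either side 3 peaks counted as gene body peaks. With the 2 kb promoter, 7.25% of protein-coding genes under 10 kb had a gene body peak, against 32.2% of all genes. Nras belongs to this class with 9.63 kb. The 4 flank peaks had folds from 3.93 to 6.08. They all lay upstream of the gene. The 2 outermost promoter peaks of Nras had their summits 1971 bp before and 1972 bp after the start site, just inside the 2 kb limit, and the nearest flank peak had its summit 3113 bp before it.

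**Figure D2:**
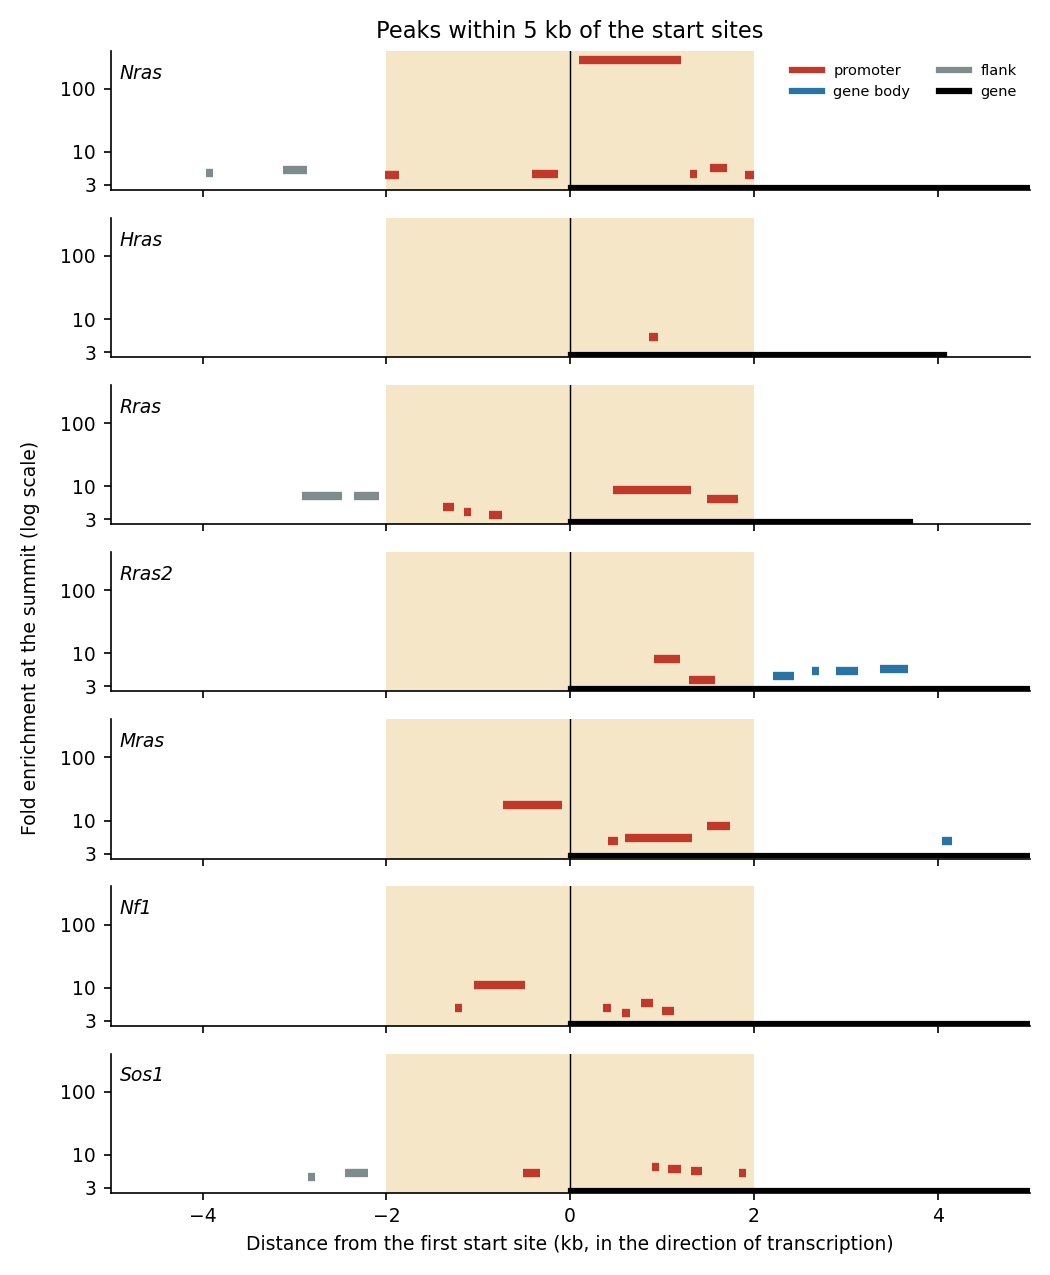
Peaks within 5 kb of the first start site of each gene, in the direction of transcription (kb), with the width of each bar showing the peak and its height on the log axis the fold enrichment, the shaded area 2 kb either side of the start site, and the black line the gene. The Nras peak at 290.44 begins just after the start site, the strongest Mras and Nf1 peaks lie before theirs, and Hras has a single narrow peak.

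Hras, the second of the classical RAS genes in this set, lies at chr7:141189934-141194004 on the minus strand. It had 1 promoter peak, 98 bp wide and 893 bp into the gene, with 12 fragments and a fold of 5.17 (2.88 to 8.69). This fold was the lowest among the strongest promoter peaks of the 7, though its interval overlapped those of Sos1, Rras2, Rras and Nf1. Of the genes that had a promoter peak, 16.2% were below it. Peaks covered 2.4% of the Hras promoter sequence against 47.4% for Nras. The peak is also within 2 kb of the start site of Lrrc56, so it cannot be given to Hras alone.

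The surroundings of Hras, by contrast, were dense, with 20 peaks in its window or 19.2 per 100 kb, more than in 88.5% of gene windows. Of the 19 flank peaks, 10 were at promoters of other genes, and 12 formed a run at chr7:141163462-141173757 around Rnh1, the ribonuclease inhibitor, with folds from 3.12 to 11.2. The strongest flank peak, with a fold of 12.1 (8.15 to 17.4), was 665 bp from the start site of Phrf1. A smaller run of 4 peaks had 3 at the promoters of Lmntd2, Mir210 and Rassf7, a gene of the RAS association domain family, with folds up to 7.96.

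Rras, which encodes R-RAS, a regulator of integrins and cell adhesion, lies at chr7:45017942-45021646 on the plus strand and has 3 start sites. It had 5 promoter peaks. The strongest, chr7:45018405-45019253, was 849 bp wide with its summit 498 bp into the gene, 21 fragments and a fold of 8.71 (5.56 to 13.1). The next, with a fold of 6.23, had its summit 24 bp from a later start site. The 3 upstream peaks, with folds from 3.56 to 4.76, were also within 2 kb of the start site of Scaf1, so they belong to a shared promoter region. The promoter windows of the 3 start sites took in nearly all of the gene, so a gene body peak had almost no room. Of the 14 flank peaks, 13 were at promoters of other genes, the strongest at Nosip and Prrg2 with a fold of 12.5 (8.5 to 17.9). Most of the peaks in the Rras window thus lay at promoters of its neighbors.

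Rras2, which encodes the close relative TC21, was the opposite case. The gene lies at chr7:114046782-114117781 on the minus strand and is 71.0 kb long. It had only 2 promoter peaks, with folds of 8.09 (5.0 to 12.5) and 3.79, with summits in an intron, 1098 and 1399 bp into the gene. Within the gene body there were 28 more, with folds from 3.36 to 8.24 and a median of 5.22, and none of its 36 peaks outside or inside the gene was at a promoter of another gene. These peaks were spread along the gene in 5 runs, the longest of which held 7 peaks between 44905 and 55104 bp after the start site. With 21.1 peaks per 100 kb the window was denser than 90.7% of gene windows and the densest of the 7. Gene body peaks are frequent in long genes, and 66.9% of the genes of 50 kb or more had at least 1.

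Mras, which encodes M-RAS, a partner of SHOC2 in RAF activation, lies at chr9:99385420-99436712 on the minus strand. Its 4 promoter peaks had folds of 17.7, 4.67, 5.35 and 8.31 in the direction of transcription. The strongest, chr9:99436802-99437443, had 40 fragments over the lowest background of the list and a fold of 17.7 (12.8 to 23.9), and its summit was 321 bp before the start site, in intergenic sequence. It was 75th among the 9569 genes with a promoter peak, with 99.1% below it, and peaks covered 43.3% of the promoter. Of the 12 gene body peaks, 11 lay in a run in the 3′ part of the gene, between 35282 and 49041 bp after the start site, with folds from 3.57 to 6.51. The 2 flank peaks had folds of 3.28 and 4.36.

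Among the regulators, Nf1 at chr11:79339892-79581609 on the plus strand, 242 kb long, had 6 promoter peaks. The strongest, chr11:79338849-79339403, had its summit 872 bp before the start site, 36 fragments and a fold of 10.9 (7.77 to 15). The other 5 had folds from 3.99 to 5.74. The 25 gene body peaks had a median fold of 4.36, and 14 of them lay in a run between 178720 and 195239 bp after the start site, where the genes Evi2a, Evi2b and Evi2 are nested in Nf1. The strongest of that run, with a fold of 10.8 (7.38 to 15.2), had its summit 155 bp from the start site of Evi2, so the highest peak inside Nf1 was at a nested gene. Outside the run the highest gene body peak, chr11:79494411-79496155, had 38 fragments and a fold of 8.65 (6.20 to 11.8). Upstream, 8 flank peaks formed a run 31236 to 36067 bp before the start site, with folds up to 8.36 (5.34 to 12.5) and none at a promoter of another gene. The Nf1 window held 12 peaks per 100 kb, close to the 11.4 of the median gene window on chromosome 11.

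Sos1, at chr17:80393752-80480453 on the minus strand, had 5 promoter peaks of nearly the same height. Their folds were 5.13 before the start site and 6.51, 5.98, 5.55 and 5.22 after it, with 11 to 14 fragments each, so their intervals overlapped. The strongest promoter peak, with 6.51 (3.78 to 10.6), was exceeded by an intron peak 34631 bp after the start site, chr17:80445632-80446275, with 23 fragments and a fold of 10.0 (6.52 to 14.8). With 14 peaks in all, 7.5 per 100 kb against 6.9 for the median window of its chromosome, Sos1 had the sparsest window of the 7.

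**Figure D3:**
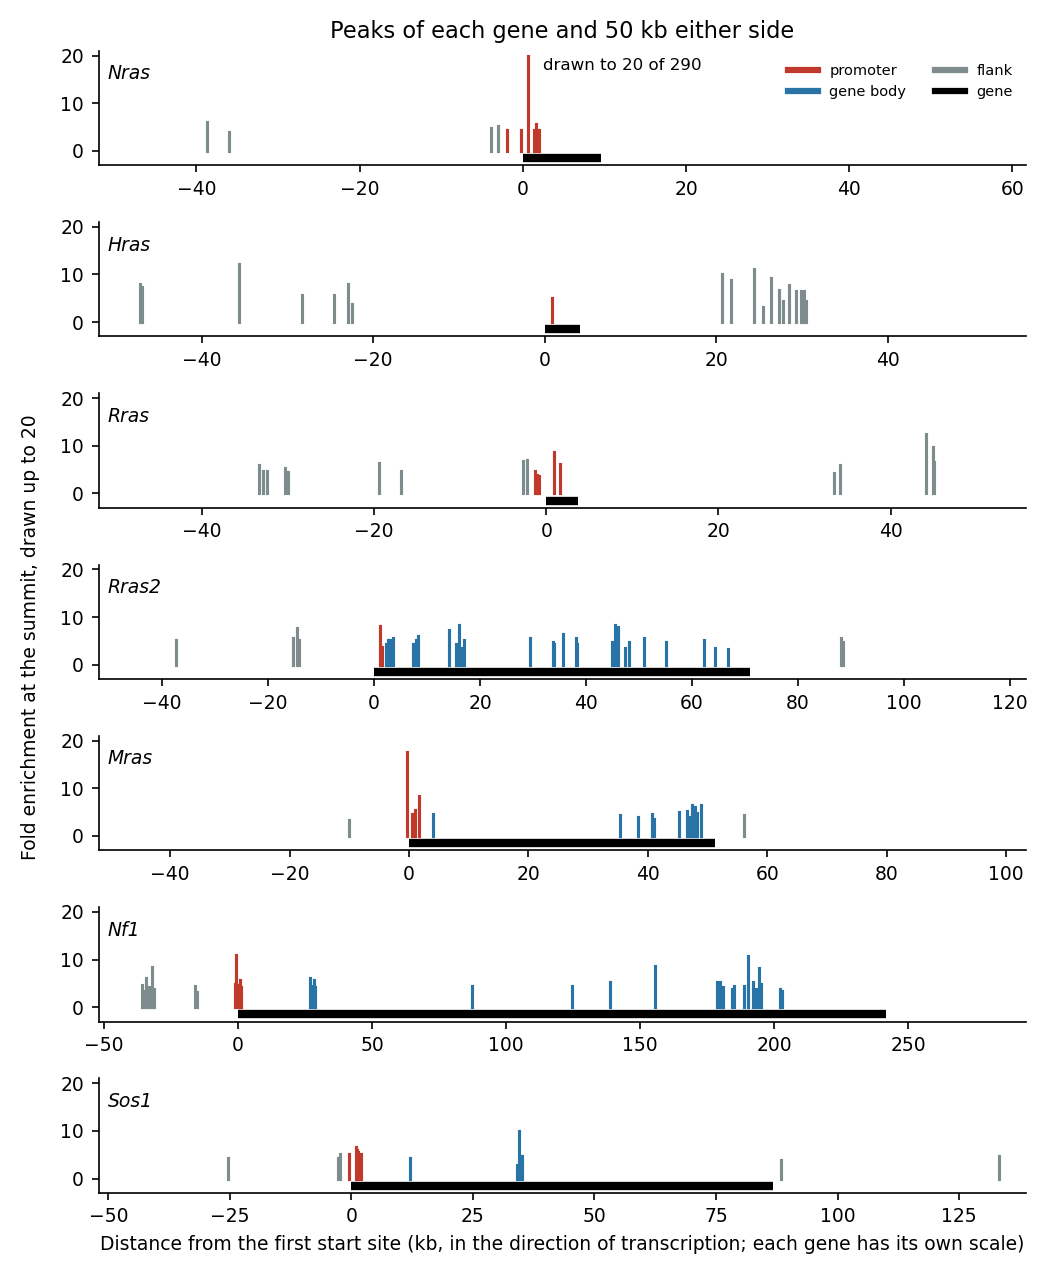
Peaks over each gene and 50 kb on either side, with distance from the first start site in kb on the horizontal axis (each gene has its own scale) and fold enrichment on the vertical axis, where the Nras peak of 290.44 is drawn only to 20. Each vertical line is a peak and the black bar is the gene. Rras2 is marked along its body, Mras in its 3′ part and Nf1 at its nested genes, and the peaks around Hras and Rras lie in the flanks.

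Set side by side by the strongest promoter peak, the order was Nras 290.44, Mras 17.7, Nf1 10.9, Rras 8.71, Rras2 8.09, Sos1 6.51 and Hras 5.17. The median of the strongest promoter peak over all genes with one was 7.24. The place of Nras in this order was set by the rule that chose it. Below Nras each gene overlapped the next in its interval, and Mras was apart from Rras2, Sos1 and Hras. The 5 lowest all overlapped one another, so their order cannot be read from these counts.

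**Figure D4:**
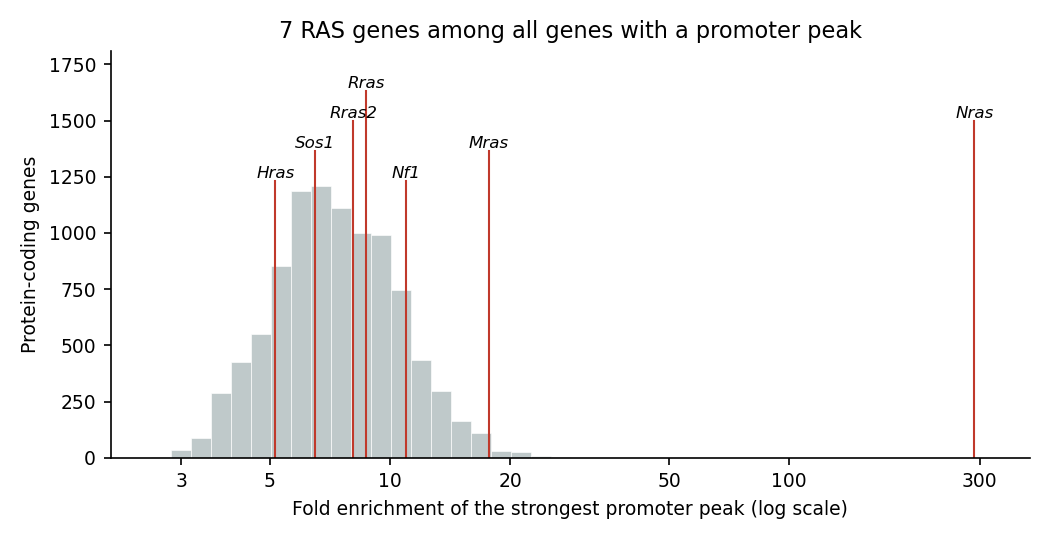
Number of protein-coding genes (vertical axis) by fold enrichment of their strongest promoter peak (horizontal axis, log scale) over the 9569 genes with one, with a red line at each of the 7 genes, whose heights serve only to separate the names. Hras lies toward the low end, Mras in the upper tail at 17.7, and Nras alone in the last bar at 290.44.

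Of the 29 promoter peaks, 20 had the summit after the start site and 9 before it (69.0% after), where 59.3% of the promoter peaks of all protein-coding genes had it after. In gene bodies 4 of the 7 genes had a peak (Rras2, Mras, Nf1 and Sos1), where 32.2% of all genes had one. These are the 4 genes longer than 50 kb, and the others are under 10 kb. Over all genes, 66.9% of those of 50 kb or more had one, against 7.25% of those under 10 kb. In Hras and Rras the promoter windows took much of the gene, so a gene body peak had little room. With promoters of 1 kb either side, 5 of the 7 had a gene body peak, Nras being added, where 36.2% of all genes did. All 7 had a flank peak, where 72.2% of all genes had one. Of the 129 gene body and flank peaks, the 29 at promoters of other genes had a median fold of 6.08 and the 100 elsewhere one of 4.79.

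The rest of the pathway was followed with 54 further genes, listed by function in 5 roles. A promoter peak was found at 38 of the 54 (70.4%), against 45.6% of all genes. Over genes in the same or higher bins of CG pairs as the 7 genes, the share was 69.4%. The 54 genes were not placed in these bins, so whether their share exceeds that of genes with similar CG pairs was not tested. The median of their strongest promoter peak was 7.11, against 7.24 for all genes. None of the 54 came near Nras. The highest were Rasa1, a GTPase-activating protein recruited to receptors, with 14.3, Ralb, a RAL GTPase downstream of RAS, with 13.3, and Ptpn11, the phosphatase SHP2 that acts between receptors and SOS1, with 12.1. The lowest of those with a promoter peak were Rasa2 with 3.12, the farnesyltransferase subunit Fnta with 4.76 and Rap2a with 4.83.

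By role, 8 of 10 GTPases had a promoter peak, with a median fold of 7.58, and so did 6 of 8 GTPase-activating proteins, with a median of 6.51, and 10 of 16 effectors, with a median of 7.26. All 8 of the genes that process and place RAS proteins, such as the farnesyltransferase subunits and the protease Rce1, had one, with a median fold of 6.00. The exchange factors and adaptors had the lowest share of the roles, 6 of 12 (50.0%), near the 45.6% of all genes. The 6 without a promoter peak, named here after their values were seen, were the exchange factors Rasgrf1, Rasgrf2 and Rasgrp1 to Rasgrp4. The 6 with a peak were Sos2, Grb2, Shc1, Gab1, Ptpn11 and Shoc2. Why these genes differ was not tested. Rasgrf2 and Rasgrp3 had no peak in their windows at all.

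**Figure D5:**
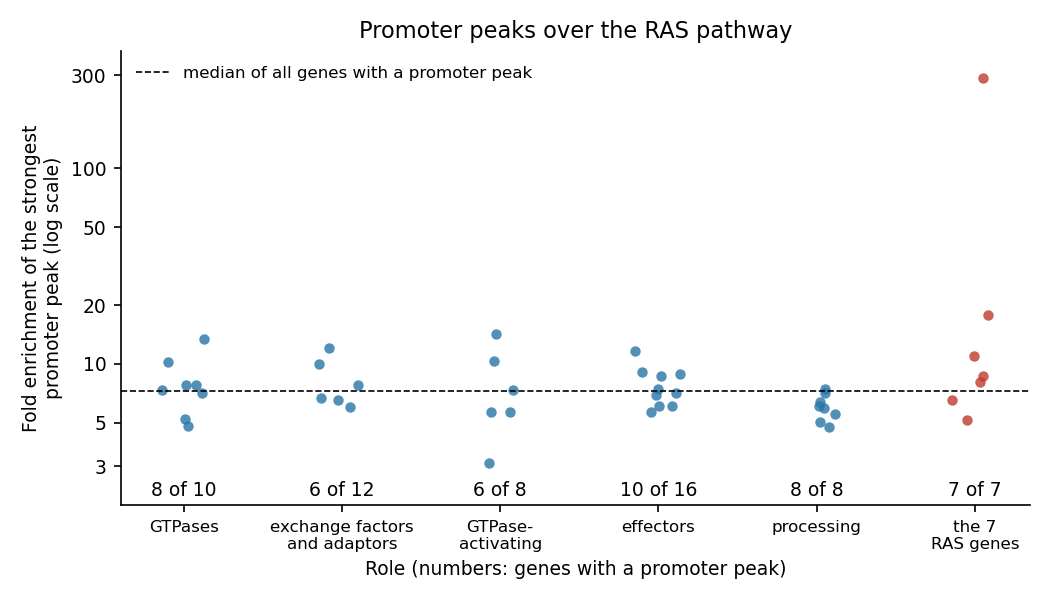
Fold enrichment (log scale) of the strongest promoter peak of each pathway gene that had one, by role, with 1 point a gene, the number of genes with a promoter peak below each column, and a dashed line at the median of all genes with one, 7.24. The 38 blue points lie between 3.12 and 14.3, and Nras and Mras lie above them all in the last column.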

How the data were processed

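H3K27ac CUT&RUN was made by the authors from sorted live tumor cells. The study's methods describe mapping with bowtie to mm10, discarding problematic regions and an amplified region near Col19a1, and calling peaks against IgG with an early MACS release, whereas the submitters' processing notes name BWA, SAMtools and MACS2 and the builds mm10 and dm6, and which produced the list was not settled. Each deposited peak has a score, a fold enrichment, a -log10 p-value and a -log10 q-value. The fold enrichment comes from the authors' caller. It was read here as the ratio of scaled H3K27ac fragments to IgG background at the summit, with 1 added to both. The largest q was 0.0471. The list was assigned to its library by the number at the start of its peak names, which stands in the description of 1 sample. That sample is number 5 by its title and number 1 by its description.

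Fragments were recovered by solving the deposited fold and -log10 p together, with a scale of 0.884 between libraries, and 98.7% of the peaks had 1 solution. This step was tested on simulated peaks with far fewer fragments than the strongest Nras peak. That peak was solved by a wider search, which the simulation did not cover. Recovered fragments are inferences, not counts of independent molecules. Depth was limiting, since the median peak had 13 fragments.

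Genes and start sites were those of curated RefSeq transcripts in GRCm38 (mm10), with GENCODE as an alternative. Sequences were read from the GRCm38 genome and compared with it by blastn 2.17.0. Python 3.11.15, numpy 2.4.6, pandas 2.3.3 and scipy 1.17.1 were used. Runs are at least 3 peaks with gaps of at most 5000 bp. The 7 genes and the lists were chosen with earlier results of these data known. Named genes were the 7, the 3 highest and 3 lowest of the pathway list, the gene at the strongest flank peak (1 is not reported here) and the gene of the peak second in fold. Other genes (those that share a promoter peak or lie at a run, markers, and genes given as examples of a role) were named after their values were seen. Peak names carry running numbers, and 584 are absent, 3 of them in the Nras window and 3 in the Rras window, and what they held was not analysed here. No test was run, because 1 library has no replicates.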

Additional observations from a re-analysis of the deposited data

How the results depend on the processing

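With only peaks of -log10 q of at least 5, the 7 windows held 72 peaks in place of 158, and Hras lost its only promoter peak, so that 6 of the 7 genes kept one, where 37.9% of all genes did. Under this limit 0 of the 7 genes had 5 or more promoter peaks, in place of 4, and 35 of the 54 pathway genes had a promoter peak. With promoters of 1 kb either side, by summit position and with GENCODE start sites, all 7 genes kept a promoter peak, while 1, 4 and 5 of them had 5 or more, and with flanks of 25 or 100 kb the windows held 127 and 209 peaks. The strongest promoter peak of each gene was the same under every alternative that left it one. No paired analysis was possible because 1 library was used, and no replicate could be left out for the same reason. With 12 fragments at the Hras peak and 11 to 14 at those of Sos1, depth limits any order among the weaker promoters.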
